A study of Mus musculus with 20 samples.

Results

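Cytosolic ribosomal protein genes were followed in the cerebellum of a knock-in mouse model of spinocerebellar ataxia type 3. The group was chosen by name only. It held the protein-coding genes of the count table with a small-subunit (Rps) or large-subunit (Rpl) symbol of the cytosolic ribosome followed by a number. A single letter a, x, y or l and a further number could follow, which leaves out Rpl36al. Rpsa, Rplp0, Rplp1 and Rplp2 were added, which gave 81 of the 29200 genes. Of these, 79 had a mean of at least 50 counts per library and were tested among 12153 genes in all. The 2 that were not tested were Rpl3l, the striated muscle form of Rpl3, with a mean of 5 counts, and Rpl24, with a mean of 16.55 counts, whose exons overlap those of another annotated gene on the same strand.

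RNA was read from the whole cerebellum of 20 male C57BL6/N mice, 5 in each of 4 groups. WT/WT mice carry the unchanged Atxn3 gene on both alleles (the labels call this wild-type ataxin-2, while the study's title and methods name ataxin-3), and 304Q/304Q mice carry on both alleles a long, interrupted polyglutamine-coding repeat that was placed into the murine Atxn3 gene with zinc-finger nucleases and stays under that gene's own regulatory elements in every cell. Each genotype was read at 2 months and at 12 months of age. The knock-in mice come from a single line, and the heterozygous genotype was not sequenced in this series.

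Ribosomal proteins are the protein part of the 2 ribosomal subunits and are made in matched amounts in nearly all cells. Their mRNAs are short and abundant, and most begin with a cytosine followed by a run of pyrimidines, the 5′ terminal oligopyrimidine (TOP) motif, through which growth signals that pass the mTOR kinase and the RNA-binding protein Larp1 set how much of each mRNA is translated. A change in mRNA level, as read here, is therefore not a change in the amount of ribosomes. In whole cerebellum, a change in the number of cells of a type and a change in the RNA of each cell cannot be told apart.

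To show the motif in the genes described below, the annotated starts in RefSeq (GRCm38.p6) were searched on the gene's own strand for a C followed by at least 4 further C or T bases. Entries were found for 61 of the 81 genes, and an annotated start was itself the C of such a run in 13 of them (21.3%), against 813 of 27025 genes in the whole table (3.01%). Such a run was found within 10 bases of a start in 37 of the 61 (60.7%) and in 34.4% of all genes. The windows below hold 10 bases before the annotated start and 20 from it on, 5′ to 3′, with the pyrimidine run in capitals, in the first 5 windows only from the annotated start on. An annotated start need not be the start used in the cerebellum. The first 5 have a run at the annotated start, and there the bases just before the start are pyrimidines too, so that the unbroken run begins further upstream. In Rps26 it begins further inside, and Rpl5 has none in this window.
Rpl35 (chr2:39005112-39005141, minus strand): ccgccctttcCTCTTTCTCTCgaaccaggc
Rps6 (chr4:86857348-86857377, minus strand): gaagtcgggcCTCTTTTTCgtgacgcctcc
Rps27 (chr3:90213629-90213658, minus strand): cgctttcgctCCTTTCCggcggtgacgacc
Rps15a (chr7:118116128-118116157, minus strand): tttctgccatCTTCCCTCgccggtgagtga
Rpl15 (chr14:18270967-18270996, minus strand): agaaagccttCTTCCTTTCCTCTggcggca
Rps26 (chr10:128626487-128626516, minus strand): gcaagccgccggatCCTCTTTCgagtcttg
Rpl5 (chr5:107900518-107900547, plus strand): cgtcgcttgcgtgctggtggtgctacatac

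The libraries held 11385380 to 27636687 counts each, with a common biological coefficient of variation of 0.113. All listed markers of granule cells and Purkinje cells were present in the table above 0. In 6 libraries the choroid plexus markers (Ttr, Folr1, Kl and Clic6) summed to between 390 and 2098 CPM (counts scaled to a common library size), against 9.75 to 29.2 in the other 14 libraries. These 6 were 304Q/304Q 2m replicate 3, WT/WT 12m replicates 1, 2 and 5, and 304Q/304Q 12m replicates 1 and 3. Over mice, with group means removed, the mean of the choroid plexus list correlated with the mean of the ribosomal protein genes at r = 0.13 (20 mice). Atxn3 itself averaged 278 ± 42.1 normalized counts (SD, n = 5) in WT/WT 2m, 192 ± 30.9 in 304Q/304Q 2m, 222 ± 16 in WT/WT 12m and 203 ± 17.6 in 304Q/304Q 12m. Its log2 fold change for the genotype was -0.54 (adjusted p = 0.0916) at 2 months and -0.13 (adjusted p = 0.51) at 12 months, and neither passed the test. No further batch was given in the labels.

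Together, the 81 genes took between 0.691% and 1.05% of all counts of a library. In WT/WT 2m mice their summed share of all counts was 0.691%, 0.747%, 0.733%, 0.873% and 0.867% in replicates 1 to 5. It was 0.873%, 0.859%, 0.864%, 0.829% and 0.721% in 304Q/304Q 2m. At 12 months it was 0.789%, 0.946%, 1.05%, 0.986% and 0.976% in WT/WT and 1.01%, 0.933%, 0.956%, 0.868% and 0.947% in 304Q/304Q. The shares at 12 months were thus higher in most mice, but WT/WT 12m replicate 1 and 304Q/304Q 12m replicate 4 lay inside the range of the 2-month mice. The group means were 0.782% ± 0.0828 (SD, n = 5) and 0.829% ± 0.0626 at 2 months, and 0.949% ± 0.0976 and 0.944% ± 0.0523 at 12 months, for WT/WT and 304Q/304Q. The depth of a library bore little relation to it (r = 0.15 between the total counts and the mean of the genes, over 20 mice with group means removed).

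**Figure D1:**
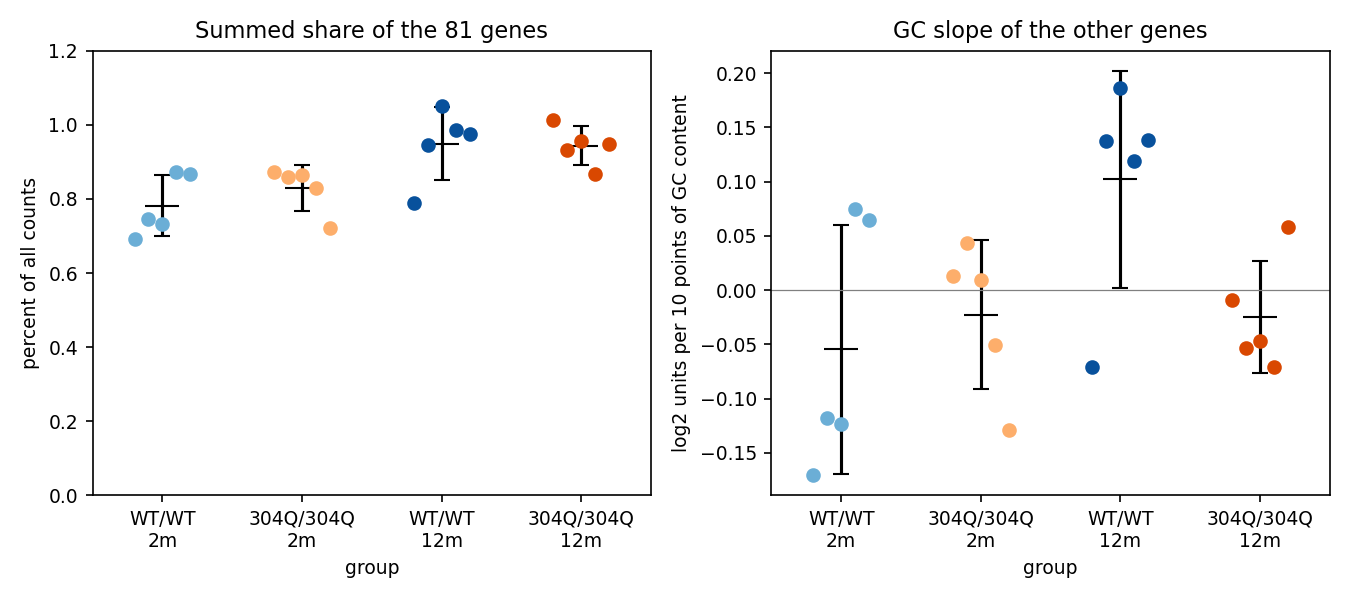
Summed share of the 81 ribosomal protein genes in all counts (left, percent) and slope of the other tested genes on GC content (right, log2 units per 10 points), per mouse (points) with group mean and SD (bars, n = 5). In WT/WT both means are higher at 12 than at 2 months, with replicate 1 of WT/WT 12m low in both, while in 304Q/304Q the mean share goes from 0.829% to 0.944% and the mean slope from -0.0228 to -0.0245.

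Levels between genes were compared as CPM per kilobase of the principal annotated transcript. The highest were Rps15 (370), a protein of the small-subunit head, Rplp1 (363), part of the stalk that receives the elongation factors, Rpl8 (260), Rpl4 (244), which lines the exit tunnel of the new peptide, and Rpl26 (243). The lowest among the tested genes were Rps20 (10.9), Rps27l (11.2), Rpl22l1 (12.4), Rpl13a (13.1) and Rpl7l1 (15.7). Of these 5, the genes Rps27l, Rpl22l1 and Rpl7l1 are the paralogs of Rps27 (166), Rpl22 (116) and Rpl7 (143), and each was lower than its partner. Rps20 and Rps15a (25.3) have long principal transcripts in the annotation (3706 and 5179 bases), so their values per kilobase rest on that choice. The untested Rpl3l stood at 0.258, against 193 for Rpl3. Ribosomal protein genes have many near-identical processed copies in the genome, and how reads that match several copies were counted is not given in the sources used here. The levels of Rpl13a (mean of 196 normalized counts), Rpl39 (234) and Rpl24 are therefore uncertain. The table also holds 198 annotated ribosomal protein pseudogenes, of which 5 were tested and which summed to between 55.7 and 109 CPM per library.

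The first comparison asked whether the knock-in differed from WT/WT at 2 months. The ribosomal protein genes showed small differences, from -0.21 for Rpl36a to 0.19 for Rps13 on the log2 scale, and 64 of 79 lay above 0, with a median of 0.07 (median of all tested genes 0.00). None passed an adjusted p of 0.05 in edgeR's quasi-likelihood test, where the background was 0.0494% of all tested genes. An unadjusted p under 0.05 was found in 4 of 79, against 5.55% of all tested genes. DESeq2 called none either, with and without surrogate variables (estimated hidden covariates). Rpl36a, whose protein sits at the exit site for used tRNAs, had 405, 456, 434, 439 and 484 normalized counts in WT/WT 2m and 405, 368, 349.8, 410.1 and 383 in 304Q/304Q 2m. The 304Q/304Q mice held the lower values, but the ranges overlapped (log2 fold change -0.21 ± 0.079 (SE), adjusted p = 0.772). The highest differences were those of Rps13 (0.19 ± 0.11 (SE), adjusted p = 0.886), Rps26 (0.19 ± 0.073 (SE), adjusted p = 0.823) and Rpl35 (0.19 ± 0.10 (SE), adjusted p = 0.883), and next to Rpl36a at the low end stood Rpl22l1 (-0.12 ± 0.16 (SE), adjusted p = 0.952) and Rpl13a (-0.07 ± 0.13 (SE), adjusted p = 0.966).

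At 12 months, when 12.5% of all tested genes differed between the genotypes, 1 of the 79 ribosomal protein genes did. This was Rps15a, a small-subunit protein, on chromosome 7, 118104372 to 118116188 of GRCm38. It had 1586, 1833, 1614, 2010.0 and 1688 normalized counts in WT/WT 12m and 2161, 2218, 2153, 2041 and 1847 in 304Q/304Q 12m. Most 304Q/304Q mice lay above all WT/WT mice, but replicate 5 of 304Q/304Q was lower than replicate 4 of WT/WT, so the groups overlapped (log2 fold change 0.25 ± 0.073 (SE), adjusted p = 0.0231). The call was lost when the length and GC trend described below was removed (0.17, adjusted p = 0.207). Of all 79 genes, 29 lay above 0, the median was -0.04 and the range reached from -0.33 for Rpl22l1 to Rps15a. Rps4x, the X-linked small-subunit gene, and Rpl15 followed Rps15a at the high end (0.17 ± 0.076 (SE), adjusted p = 0.161 and 0.10 ± 0.056 (SE), adjusted p = 0.276). Rpl41, which codes for a very short peptide, and Rpl39 followed Rpl22l1 at the low end (-0.22 ± 0.10 (SE), adjusted p = 0.173 and -0.20 ± 0.14 (SE), adjusted p = 0.372). Without the 6 libraries with choroid plexus markers, a subset chosen after the data were seen, the median was -0.17 and 1 of the 79 genes was called, Rpl41, which was lower (5.36% of all tested genes). This fit held only replicates 3 and 4 of WT/WT 12m and replicates 2, 4 and 5 of 304Q/304Q 12m. Those WT/WT mice had the highest summed shares of their group (1.05% and 0.986%).

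The next comparison, WT/WT 12m against WT/WT 2m, gave the largest difference of the group. With age, 42 of the 79 genes rose and none fell, where the background was 11.5% of all tested genes in either direction and 6.08% higher. The median log2 fold change was 0.26 (all tested genes 0.00), 77 of 79 genes lay above 0, and no gene reached 0.5, the size set for a differentially expressed gene (DEG), so that none was a DEG, against 2.58% of all tested genes. Of 32 small-subunit genes 19 rose, and of 47 large-subunit genes 23 rose, with medians of 0.26 and 0.25.

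Among the small-subunit genes, Rps26, a protein at the exit of the mRNA channel, on chromosome 10, 128624534 to 128626747, rose most. It had 1237, 1303, 1389.7, 1429 and 1456 normalized counts at 2 months and 1681, 1873, 2187, 1872 and 1971 at 12 months in WT/WT. All 5 older mice lay above all 5 younger ones (log2 fold change 0.49 ± 0.073 (SE), adjusted p = 0.000142). Rps3a1 (0.27 ± 0.054 (SE), adjusted p = 0.00246), Rps24, a protein needed to mature the small subunit's rRNA (0.32 ± 0.074 (SE), adjusted p = 0.00796), Rps15 (0.37 ± 0.082 (SE), adjusted p = 0.00518) and Rps27 (0.44 ± 0.11 (SE), adjusted p = 0.0111) rose with overlap between single mice. In Rps15 and Rps27 the call was lost with the length and GC trend removed (adjusted p = 0.0843 and 0.0637). Rps6, whose protein is the classical target of S6 kinase, rose by 0.27 (adjusted p = 0.0372), a call also lost with the trend removed (0.19, adjusted p = 0.11). Rps27a, made as a fusion with ubiquitin, had a log2 fold change of 0.29 ± 0.11 (SE), adjusted p = 0.0701.

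Among the large-subunit genes, Rpl5, which binds 5S rRNA together with Rpl11, on chromosome 5, 107900502 to 107909005, had 1195, 1217, 1104, 1272 and 1208 normalized counts in WT/WT 2m and 1301, 1459, 1554, 1443 and 1403 in WT/WT 12m. The ages did not overlap, with replicate 1 as the lowest of the older mice (log2 fold change 0.26 ± 0.057 (SE), adjusted p = 0.00565). Rpl30 (0.30 ± 0.069 (SE), adjusted p = 0.00719), Rpl6 (0.27 ± 0.065 (SE), adjusted p = 0.00862) and Rpl29 (0.30 ± 0.072 (SE), adjusted p = 0.00937) rose with overlap, and the call for Rpl29 was lost with the trend removed (adjusted p = 0.139). Of the 3 stalk genes, Rplp1 rose (0.31 ± 0.080 (SE), adjusted p = 0.0148), while Rplp0 (0.09 ± 0.052 (SE), adjusted p = 0.236) and Rplp2 (0.25 ± 0.13 (SE), adjusted p = 0.193) did not pass the test. The call for Rplp1 was also lost with the trend removed (0.08, adjusted p = 0.303). In all, 4 of 79 genes (5.06%) had no overlap between the ages, Rps26 and Rpl5 among them, against 3.64% of all tested genes with no overlap and a higher level.

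The genes at the other end were Rpl22l1 (-0.09 ± 0.16 (SE), adjusted p = 0.770), Rps15a (-0.05 ± 0.074 (SE), adjusted p = 0.715) and Rpl22 (0.01 ± 0.065 (SE), adjusted p = 0.931). Rpl22 had 761, 779, 764, 796 and 836 normalized counts at 2 months and 731, 864, 862, 789 and 722 at 12 months, and the younger mice lay within the range of the older ones. Its paralog Rpl22l1, which can take its place in the ribosome, had 117, 134, 99.8, 92.4 and 97.1 at 2 months and 107, 104, 124, 88.3 and 85.5 at 12 months, with wide overlap. The 13 genes with a pyrimidine run at the start had a median log2 fold change with age of 0.27, and the 46 tested genes with an entry but no such run had 0.25. Rps15a and Rpl15, whose windows are shown above, belong to the former, and Rps26 and Rpl5 to the latter.

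**Figure D2:**
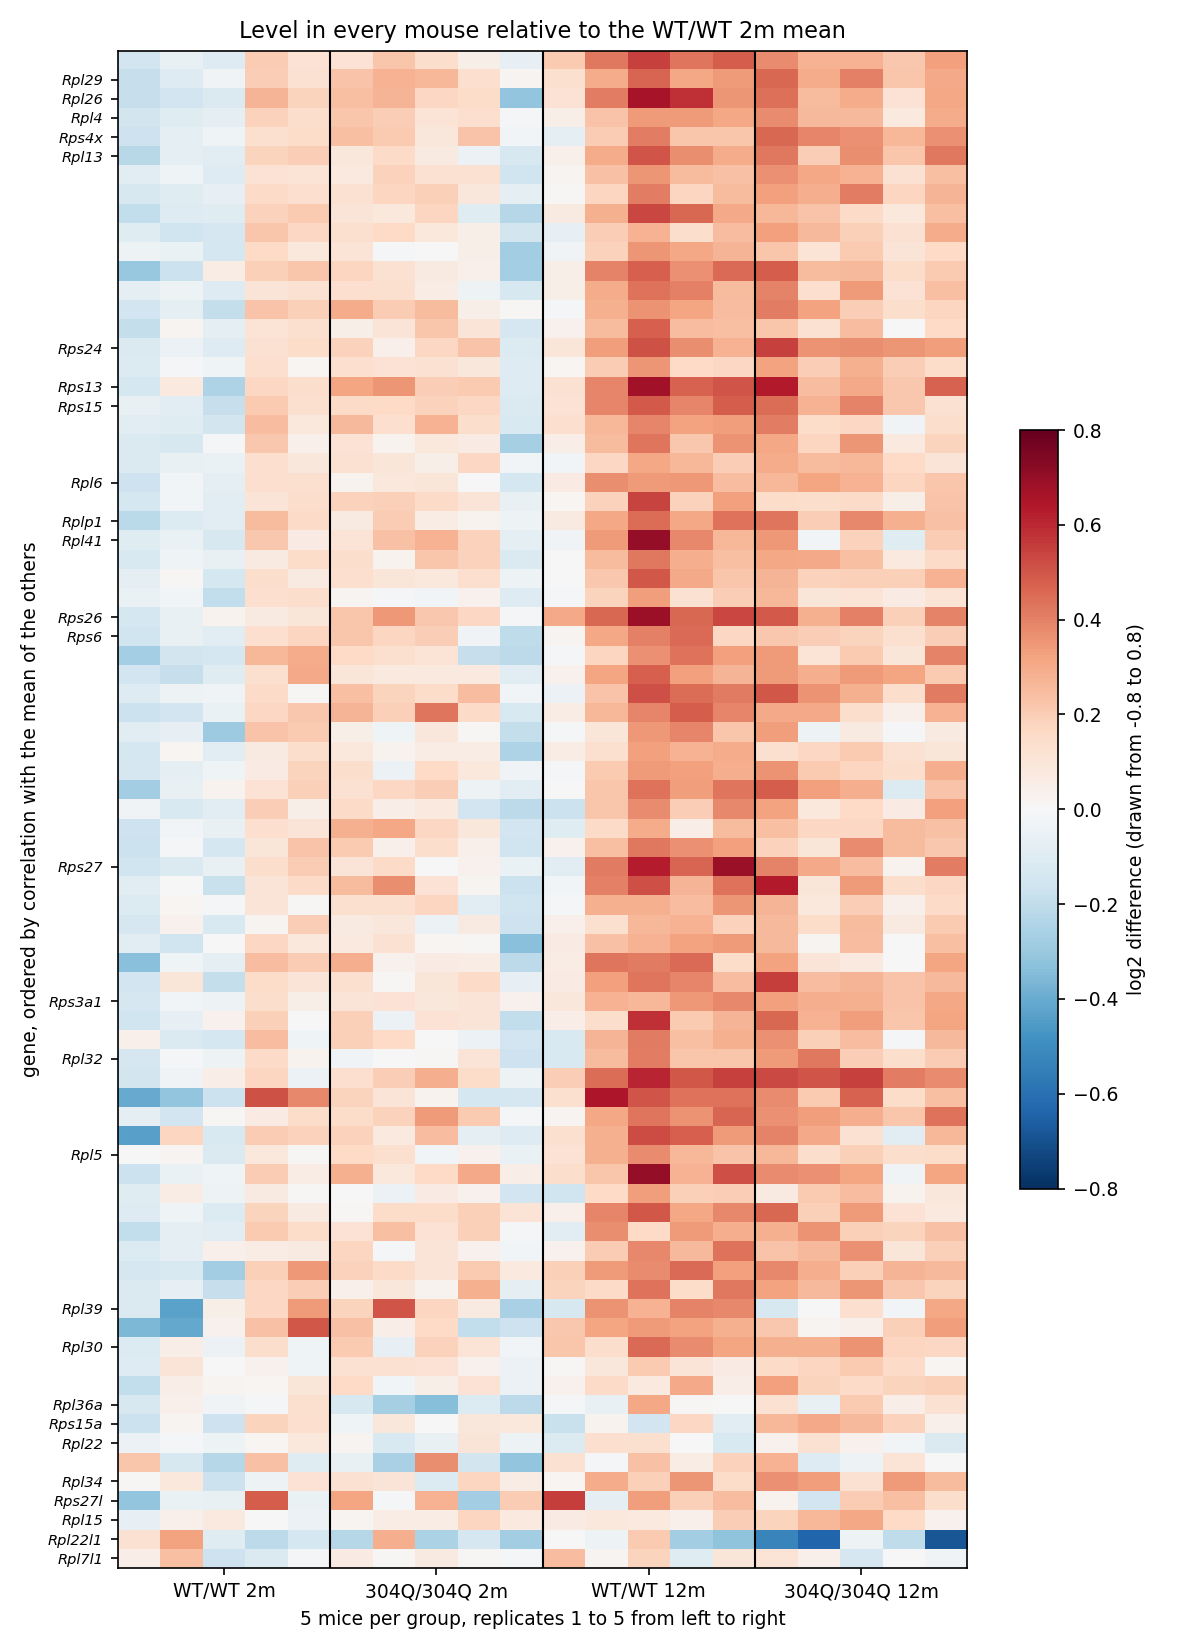
Log2 level of the 79 tested genes (rows) in each of the 20 mice (columns), as a difference from the WT/WT 2m mean, with some rows labelled and all ordered from the highest to the lowest correlation with the mean of the other genes. Most rows are redder at 12 months, columns shift as a whole (WT/WT 12m replicate 1 is pale, replicate 3 dark), and the lowest rows, such as Rpl22l1 and Rpl7l1, do not follow the columns.

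The same comparison in the knock-in, 304Q/304Q 12m against 304Q/304Q 2m, shares no mice with the preceding one. Here 7 of 79 genes rose and none fell, against a background of 7.26% of all tested genes in either direction and 3.08% higher. The median log2 fold change was 0.17 (all tested genes 0.00), and 74 of 79 genes lay above 0. Among the 7 were Rps24 (0.29 ± 0.074 (SE), adjusted p = 0.0154), Rpl36a (0.30 ± 0.079 (SE), adjusted p = 0.0193), Rps3a1 (0.20 ± 0.054 (SE), adjusted p = 0.0221), Rpl6 (0.24 ± 0.064 (SE), adjusted p = 0.0233), Rpl32 (0.28 ± 0.080 (SE), adjusted p = 0.0305) and Rpl13 (0.30 ± 0.086 (SE), adjusted p = 0.0321). Rps24, Rps3a1, Rpl6 and Rpl13 were among the 5 genes called in both genotypes, and 44 were called in either.

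Rps24 had 3329, 3006, 3277, 3432 and 2708 normalized counts in 304Q/304Q 2m and 4278, 3746, 3793, 3732 and 3694 in 304Q/304Q 12m. Every older mouse lay above every younger one, with replicate 1 well above the other older mice. Rps3a1 had 2177, 2194, 2157, 2181 and 2074 at 2 months and 2548, 2478, 2467, 2373 and 2512 at 12 months. Its mice lay close together within each age and apart between the ages. Rpl36a had 482, 424, 511, 459 and 481 in 304Q/304Q 12m, all above the 304Q/304Q 2m values given earlier, while in WT/WT it had 405, 456, 434, 439 and 484 at 2 months and 439.9, 425, 549, 446 and 443 at 12 months, with overlap (log2 fold change 0.05 ± 0.079 (SE), adjusted p = 0.695). Altogether 15 of the 79 genes did not overlap between the ages in 304Q/304Q and were higher at 12 months, against 3.6% of all tested genes. Rps26, which led in WT/WT, had 1585, 1732, 1579, 1525 and 1343 in 304Q/304Q 2m and 1908, 1656, 1795, 1554 and 1795 in 304Q/304Q 12m, with overlap (0.17 ± 0.073 (SE), adjusted p = 0.200). Rpl22l1 again stood lowest, with 91.4, 131, 89.5, 97.5 and 88.1 and 74.1, 68.7, 104, 92.7 and 66.2 (-0.29 ± 0.16 (SE), adjusted p = 0.343), followed by Rpl39 (-0.08 ± 0.14 (SE), adjusted p = 0.820) and Rpl7l1 (-0.03 ± 0.076 (SE), adjusted p = 0.896).

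**Figure D3:**
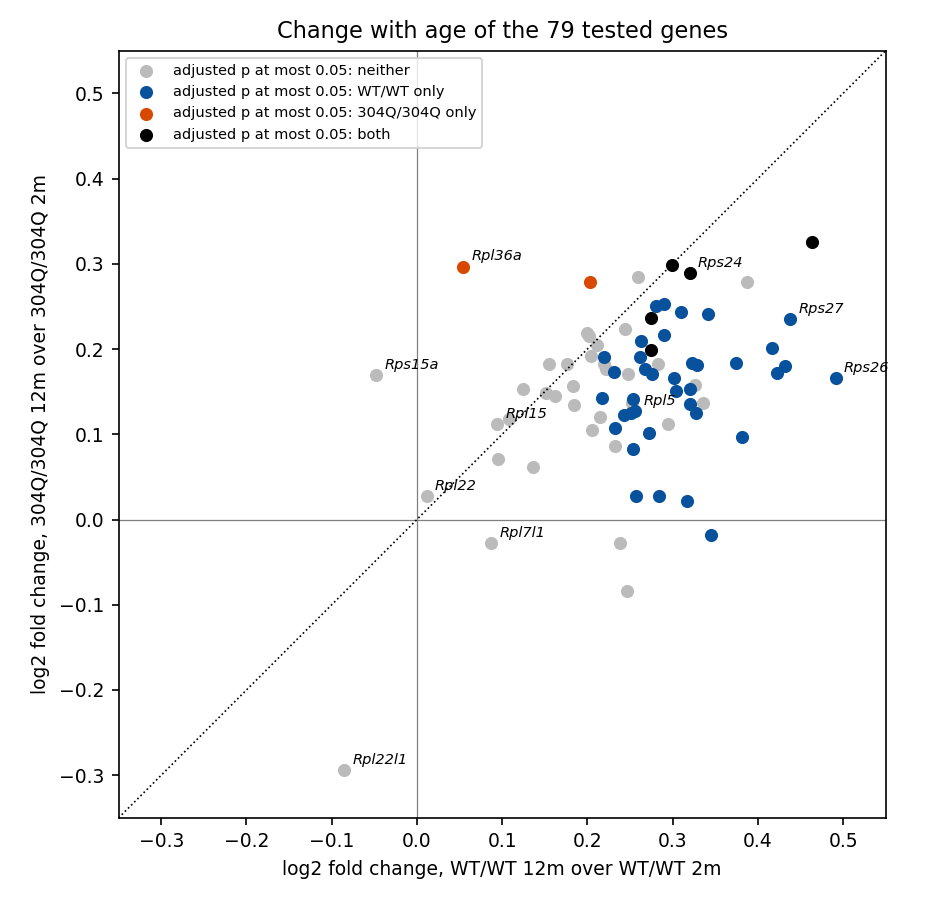
Log2 fold change with age in WT/WT (horizontal) and in 304Q/304Q (vertical) for the 79 tested genes, each point 1 gene, coloured by the comparison in which its adjusted p is at most 0.05, with a dotted line where both are equal. In the 2 comparisons, which share no mice, 73 genes lie above 0 in both and 67 lie below the dotted line, with the larger value in WT/WT.

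Whether age acted differently in the 2 genotypes was tested directly as an interaction. No ribosomal protein gene passed (background 1.95% of all tested genes), and DESeq2 called none. An unadjusted p under 0.05 was found in 8 of 79, against 15.9% of all tested genes. The median difference, 304Q/304Q minus WT/WT, was -0.10, 67 of 79 genes lay below 0, and the smallest adjusted p was that of Rps26 (-0.33 ± 0.10 (SE), adjusted p = 0.11). Rps26 passed when either WT/WT 12m replicate 1 (log2 value -0.37, adjusted p = 0.0348) or 304Q/304Q 2m replicate 5 (-0.37, adjusted p = 0.0414) was left out. In these fits 4.59% and 3.09% of all tested genes were called. Rpl41 (-0.36 ± 0.15 (SE), adjusted p = 0.227) and Rpl39 (-0.33 ± 0.20 (SE), adjusted p = 0.427) had the lowest values, and Rpl36a (0.24 ± 0.11 (SE), adjusted p = 0.293), Rps15a (0.22 ± 0.10 (SE), adjusted p = 0.310) and Rpl32 (0.08 ± 0.11 (SE), adjusted p = 0.774) the highest. Thus 42 genes called in WT/WT and 7 in 304Q/304Q is not a tested difference between the genotypes.

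The number of genes called moved with single libraries. In WT/WT, leaving out replicate 1, 2 or 3 at 2 months gave 17, 22 and 21 genes, leaving out replicate 3, 4 or 5 at 12 months gave 15, 24 and 27, and leaving out replicate 1 at 12 months gave 64. The share of all tested genes called moved along, with 6.24%, 6.94% and 7.52% in the first 3 of these fits, 5.97%, 8.38% and 6.78% in the next 3 and 20.9% in the last. The median stayed between 0.22 and 0.31 over all 20 such fits. In 304Q/304Q, leaving out replicate 3 or 5 at 2 months gave 4 and 2 genes, leaving out replicate 1 at 12 months gave 3, and leaving out WT/WT 12m replicate 1, which enters through the shared spread, gave 13, where 5.92%, 6.68%, 5.97% and 7.97% of all tested genes were called. Its median stayed between 0.12 and 0.19. At 12 months between genotypes, the single call for Rps15a was lost without WT/WT 12m replicate 3 or 5 or 304Q/304Q 12m replicate 1, 2 or 3, and 3 genes were called without WT/WT 12m replicate 1, where 17.1% of all tested genes were called. Without the 6 libraries with choroid plexus markers, 46 genes were called with age in WT/WT, 37 of them among the 42, where 9.09% of all tested genes were called. In 304Q/304Q it was 1 gene, one of the 7, where 3.55% of all tested genes were called. These fits held only replicates 3 and 4 of WT/WT 12m and replicates 2, 4 and 5 of 304Q/304Q 12m.

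Within each group of mice, the ribosomal protein genes moved up and down together. With group means removed, the mean Pearson correlation between pairs of the 79 genes over the 20 mice was 0.58, and 93.7% of the pairs were above 0. Between pairs of all tested genes the mean was 0.000222. The scaling balances the genes of each library and so holds that value near 0 in advance, and it is no measured background. The first principal component took 63.7% of the variance of these genes and 24.0% of that of all tested genes. The correlation was higher among the 32 small-subunit genes (0.66) than among the 47 large-subunit genes (0.52), and the means of the 2 subunits correlated at r = 0.98. Within the 5 mice of a group the mean correlation was 0.65 in WT/WT 2m, 0.54 in 304Q/304Q 2m, 0.67 in WT/WT 12m and 0.39 in 304Q/304Q 12m. Co-movement of this size was not particular to these genes. Mean correlations were higher for the choroid plexus markers (0.91), the mitochondrially encoded genes (0.91), the blood markers (0.77) and the myelin markers (0.62). The other lists with such a value lay lower, from -0.01 for the regulators of TOP mRNA translation to 0.57 for the tested pseudogenes. All these values share the libraries and their scaling, so they describe these libraries and carry no test.

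Of the 79 genes, 70 correlated above 0.5 with the mean of the others (median 0.83). Among the 5 genes that followed most closely were Rpl29 (0.95), Rpl26 (0.94), Rpl4 (0.94) and Rps4x (0.93). The 5 that followed least were Rpl7l1 (-0.19), Rpl22l1 (-0.14), Rpl15 (-0.039), Rps27l (0.099) and Rpl34 (0.27). Thus the 3 tested paralogs all stood among these 5, whereas their partners Rpl7 (0.84) and Rps27 (0.83) followed the others and Rpl22 (0.40) did so in part. Rpl22l1 and Rps27l had means of only 97.6 and 79.7 normalized counts, and across the 79 genes the correlation with the others rose with the mean level (r = 0.60 across genes). Rpl15, with a mean of 1054 normalized counts, was not a low gene. It had 943, 1018, 1043, 985 and 955 normalized counts in WT/WT 2m, 1003, 1029, 1031, 1113 and 1045 in 304Q/304Q 2m, 1036, 1049, 1043, 1015 and 1134 in WT/WT 12m and 1117, 1189, 1224, 1103 and 1011 in 304Q/304Q 12m. These values overlapped between all groups, and WT/WT 12m replicate 1, low for most ribosomal protein genes, was not low for Rpl15.

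The co-movement was then set against a property of the whole library. For each tested gene outside the group, the log2 level in a mouse was taken as a difference from the gene's mean over the mice. These differences were fitted on transcript length and GC content, which gave a length slope and a GC slope per mouse. Each slope is thus relative to the other mice. The 79 genes are short, with a median transcript of 780 bases against 3109 in the other tested genes, of which only 2.63% are shorter than that, while their median GC content of 50.7% is close to the 50.4% of the others. With group means removed, the mean of the 79 genes correlated with the GC slope at r = 0.91 (Spearman's rho 0.85, 20 mice) and with the length slope at r = -0.725 (rho -0.71). Without the 2 mice farthest from the median slope the values were 0.86 and -0.74. Both slopes together took 94.5% of the variance of the mean, in a fit over 20 mice that weighs the slopes freely. That is not the part that goes with the length and GC content of the 79 genes themselves. Removing the trend at their own length and GC content, as described below, took the SD of the mean from 0.11 to 0.0692. The share of mitochondrially encoded counts correlated with the same mean at r = -0.75 (rho -0.72), and was between 5.64% and 7.93% in the 20 mice. The slopes and the mean come from the same libraries, so the relation is a description, and which of them drives the other was not tested.

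**Figure D4:**
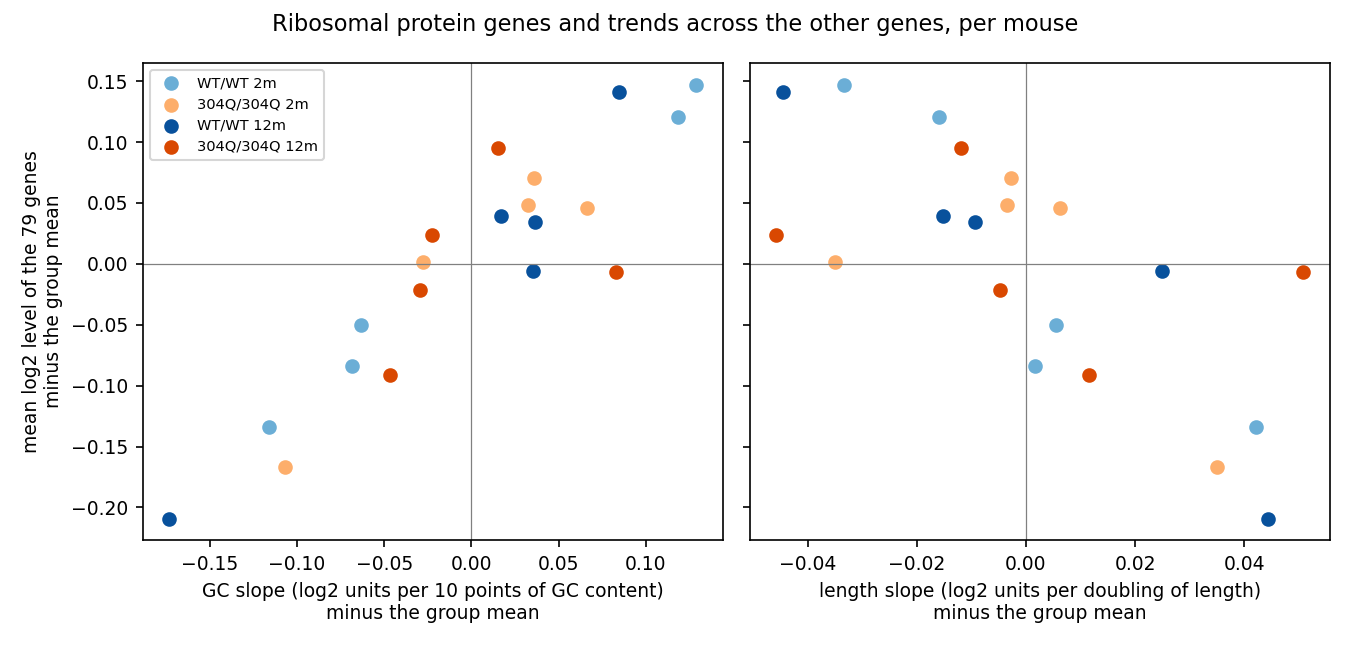
Mean log2 level of the 79 ribosomal protein genes per mouse against the GC slope (left) and the length slope (right) of the other tested genes, each with its group mean removed, coloured by group (5 mice each). Mice with a higher GC slope have a higher mean (r = 0.91) and mice with a higher length slope a lower one (r = -0.725).

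The mean slopes lay further apart between the ages in WT/WT than in 304Q/304Q, a difference that was not tested. The GC slope (log2 units per 10 points of GC content) was -0.0546 ± 0.115 (SD, n = 5) in WT/WT 2m and 0.102 ± 0.1 in WT/WT 12m, but -0.0228 ± 0.0686 in 304Q/304Q 2m and -0.0245 ± 0.0517 in 304Q/304Q 12m. Its values in WT/WT were -0.171, -0.118, -0.123, 0.0743 and 0.0641 at 2 months and -0.0713, 0.137, 0.187, 0.119 and 0.138 at 12 months, so that replicates 4 and 5 of the younger mice and replicate 1 of the older mice lay on the side of the other age. The length slope went from 0.0231 ± 0.0282 to -0.0226 ± 0.0350 in WT/WT and from 0.00170 ± 0.0250 to -0.00218 ± 0.0353 in 304Q/304Q. Across the 79 genes, the log2 fold change with age in WT/WT correlated with GC content at r = 0.42 and with log2 length at r = -0.31, and across the other tested genes at r = 0.43 and -0.26. In 304Q/304Q the values for the 79 genes were 0.25 and 0.03, and for the other genes 0.00 and -0.02. These are correlations across genes, which are not independent replicates.

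A trend on length and GC content was then fitted over the tested genes, the 79 included, and taken out of each library. The medians of the 2 age comparisons then came together. In WT/WT the median fell from 0.26 to 0.14, 74 of 79 genes lay above 0, and 19 were called (background under the same setting 6.85%), of which 18 were among the 42. In 304Q/304Q the median was 0.15 in place of 0.17, and 22 genes were called (background 9.34%), with all 7 among them. The median of the interaction went from -0.10 to 0.0085, with 40 of 79 genes above 0 and none called. The genotype medians became 0.03 at 2 months and 0.02 at 12 months. At 12 months 2 genes were then called, Rpl29 and Rpl8, both higher in 304Q/304Q (background 13.9%), and Rps15a was not.

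With the trend removed, Rps24 had log2 fold changes of 0.35 in WT/WT and 0.28 in 304Q/304Q (adjusted p = 0.00597 and 0.0171). Rps26 had 0.42 and 0.15 (adjusted p = 0.000168 and 0.144) and passed in WT/WT but not in 304Q/304Q. Rpl22 had -0.07 and 0.01, and did not pass in either. Surrogate variables in edgeR gave a like picture, with medians of 0.14 in WT/WT and 0.16 in 304Q/304Q and 12 and 37 genes called, where 6.75% and 12.4% of all tested genes were called. With age in WT/WT, 9 genes passed as counted and under every planned setting other than leaving out a library, among them Rps26, Rps3a1, Rpl5, Rpl6, Rps24, Rpl26 and Rpl30, and all 9 but Rpl26 also in each of the 20 fits without a library. In 304Q/304Q these were 4 genes, among them Rps24, Rpl6 and Rpl32, none of which passed in every fit without a library.

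**Figure D5:**
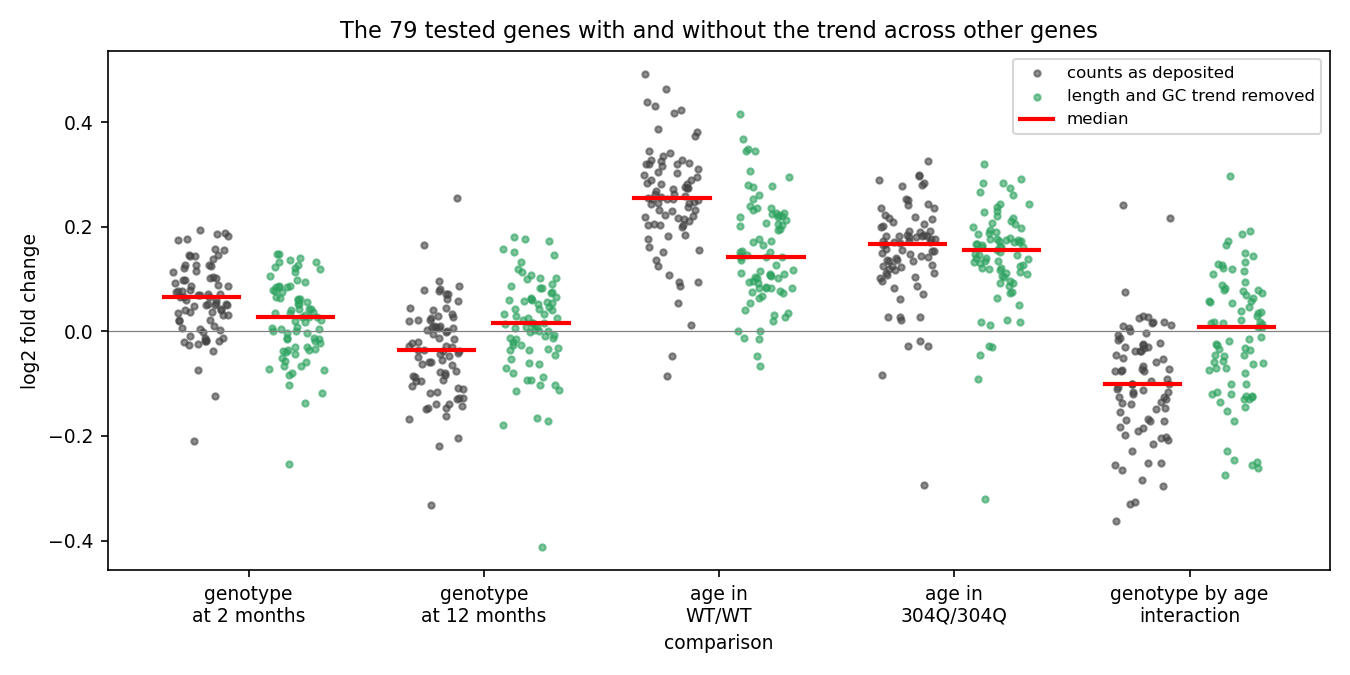
Log2 fold changes of the 79 tested genes in the 5 comparisons, from the counts as deposited (grey) and with the length and GC trend over all tested genes removed (green), with the median as a red line. Removing the trend brings the age medians from 0.26 and 0.17 to 0.14 and 0.15 and the interaction median from -0.10 to 0.0085.

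The co-movement shrank but stayed. With the trend removed, the mean correlation between pairs of the 79 genes was 0.32 (all tested genes 0.000722, again held near 0 by the scaling). The SD between mice of the mean of the 79 genes, within groups, went from 0.11 to 0.0692 on the log2 scale. By the correlation with the mean of the 79 genes, 203 of the 12074 other tested genes reached 0.8, as did 53 of the 79 genes against the mean of the others. The 10 nearest were Ndufv2 (0.94), Tpt1 (0.94), Cox4i1 (0.93), Mdh1 (0.93), Fau (0.93), Ndufa13 (0.93), Aurkaip1 (0.93), Atp5h (0.93), Atp5e (0.92) and Ppp5c (0.92). Of these, Tpt1 is a classical TOP mRNA and Fau codes for the small-subunit protein S30 as a fusion with a ubiquitin-like protein, and Ndufv2, Cox4i1, Ndufa13, Atp5h and Atp5e code for subunits of the respiratory chain and ATP synthase. With age, Fau rose in WT/WT by 0.38 (adjusted p = 0.00493) and had 0.21 in 304Q/304Q (adjusted p = 0.15). The other 9 had log2 values between 0.03 and 0.23 in WT/WT and between -0.26 and -0.02 in 304Q/304Q, with no adjusted p of 0.05 or below in either.

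The ribosome subunits that the naming rule leaves out and the wider translation machinery were read as lists. Of 4 subunit genes outside the naming rule, Fau and Rack1 were tested, and both rose with age in WT/WT (Rack1, a scaffold on the small subunit, 0.23, adjusted p = 0.0144). In 304Q/304Q Rack1 had 0.13 (adjusted p = 0.235), and the interaction did not pass for Fau (-0.18, adjusted p = 0.468) or Rack1 (-0.10, adjusted p = 0.56). Of 8 elongation genes, 2 rose in WT/WT, Eef1d (0.23, adjusted p = 0.0212) and Eef1a1 (0.14, adjusted p = 0.0408), and 2 rose in 304Q/304Q, Eef2 (0.18, adjusted p = 0.00291) and Eef1a1 (0.21, adjusted p = 0.00475). Of 50 tested initiation factor genes, 4 rose and 1 fell with age in WT/WT (median 0.03) and 2 rose in 304Q/304Q (median 0.01). Among the former were Eif3f (0.34, adjusted p = 0.0261) and Eif3h (0.21, adjusted p = 0.0241), subunits of the initiation complex eIF3. Of 35 ribosome biogenesis genes, 1 rose with age in WT/WT (Tcof1, which acts in rRNA transcription, 0.28, adjusted p = 0.0113), with medians of 0.06 in WT/WT and 0.00 in 304Q/304Q. Of 15 tested regulators of TOP mRNA translation, among them Larp1 and Mtor, none was called in any of the 5 comparisons, and their median with age was 0.02 in WT/WT and 0.01 in 304Q/304Q.

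The mitochondrial ribosomal protein genes, a separate set that serves the ribosome inside mitochondria, varied with the cytosolic ones between mice, and few of them were called with age. Their mean correlated with that of the 79 genes at r = 0.96 over the 20 mice with group means removed. With age, 3 of 77 rose and 1 fell in WT/WT (median 0.09), and none was called in 304Q/304Q (median -0.05). Between genotypes at 12 months, 1 was higher and 6 were lower in 304Q/304Q (median -0.11), such as Mrpl28 (-0.38, adjusted p = 0.0127) and Mrps7 (-0.27, adjusted p = 0.0163).

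Markers of cerebellar cell types also varied with the ribosomal protein genes between mice. The mean of 5 granule cell markers (Gabra6, Cbln1, Neurod1, Zic1 and Etv1) correlated with the mean of the 79 genes at r = -0.89 between mice, and their summed level was 3748 to 4189 CPM in WT/WT 2m, 3431 to 4146 in 304Q/304Q 2m, 3073 to 3560 in WT/WT 12m and 3089 to 3651 in 304Q/304Q 12m. With age, 2 of the 5 fell in WT/WT and none was called in 304Q/304Q. The corresponding correlations were -0.69 for 5 Purkinje cell markers, -0.52 for 5 astrocyte and Bergmann glia markers, 0.41 for 5 markers of myelinating oligodendrocytes, 0.53 for 4 endothelial markers, 0.07 for the 4 tested of 5 microglia markers, 0.16 for 5 blood markers and 0.01 for the 3 tested of 4 markers of the meninges. With age in WT/WT, 2 of the 5 astrocyte and Bergmann glia markers and 2 of the 5 myelin markers fell, 2 of the 4 microglia markers and 2 of the 5 blood markers rose, and 1 of the 5 Purkinje cell markers, Pcp2, rose (0.37, adjusted p = 0.00808). With age in 304Q/304Q, 3 of the 5 Purkinje cell markers and 4 of the 5 myelin markers fell, 3 of the 5 astrocyte and Bergmann glia markers fell and 1 rose, and 3 of the 4 microglia markers rose. The myelin markers summed to 4981 to 5764 CPM in WT/WT 2m, 4266 to 5007 in 304Q/304Q 2m, 4769 to 5429 in WT/WT 12m and 3000 to 4297 in 304Q/304Q 12m, and no listed marker of any type was at 0 in all libraries. The part of any of these cell types in the levels of the ribosomal protein genes was not tested.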

How the data were processed

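Polyadenylated RNA of the cerebellum of 20 mice was sequenced with a stranded TruSeq protocol. The deposited table holds whole-number counts of reads per Ensembl gene, which the authors made by alignment with STAR (2.4.5b in the submitters' notes) to GRCm38 and counting with Rsubread. Whether strand was used, and how reads with several matches were counted, is not given in the sources used here. Groups followed the labels. The labels do not give litters or batches, so p-values measure the spread between these mice.

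Genes that averaged 50 or more counts were fitted in edgeR 4.0.16 (R 4.3.3; TMM factors, quasi-likelihood test, 1 term per group, all 20 libraries), with Benjamini-Hochberg adjustment over all 12153 genes and a threshold of 0.05. Normalized counts are TMM-scaled counts at the mean library size, and log2 levels used a prior count of 2. Length and GC content came from the principal transcript in GENCODE M21. Alternatives used DESeq2 1.42.0 and sva 3.50.0 (3 surrogate variables). The scripts were tested on simulated data. Genes named were the 10 smallest p among those called in a comparison, the 3 highest and 3 lowest fold changes, the 5 highest and lowest levels per length, the 5 most and least correlated with the group, the paralogs with their partners, the 10 nearest genes outside the group, and up to 4 called genes per list. Rps6, Rps27a, Rplp0, Rplp2 and Rpl8 and Rpl29 at 12 months were picked after their values were seen. The members and lists were chosen with earlier results of these data known. Same-numbered libraries did not vary together, so the replicate number was not a term. Totals of 11385380 to 27636687 counts per library limit low genes such as Rpl24 and Rpl3l most. The values of some genes that this rule names are not reported here.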

Additional observations from a re-analysis of the deposited data

Results flagged for a closer look

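In 5 of 56 groups of 5 mice, the highest or lowest mouse stood apart from the other 4 by more than Dixon's limit. Chance marks about 1 in 20 groups, or 2.8 here. The summed share of the ribosomal protein genes in 304Q/304Q 2m replicate 5 was 0.721%, with the other mice between 0.829% and 0.873%. The GC slope of WT/WT 12m replicate 1 was -0.0713, with the others between 0.119 and 0.187. Rps24 had 4278 normalized counts in 304Q/304Q 12m replicate 1, and 3694 to 3793 in the others. Rpl36a had 549 in WT/WT 12m replicate 3, and 425 to 446 in the others. Rpl22l1 had 131 in 304Q/304Q 2m replicate 2, and 88.1 to 97.5 in the others.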

How the results depend on the processing

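The median log2 fold change with age stayed above 0 in both genotypes under every alternative, while the number of genes called did not stay. With the length and GC trend removed, 19 genes were called with age in WT/WT (median 0.14), 22 in 304Q/304Q and 2 between genotypes at 12 months, the interaction median was 0.0085 and the co-variation 0.32. Surrogate variables gave 12 (median 0.14) and 37 genes with age in edgeR, and 16 (median 0.13) and 42 in DESeq2, with 3 genes between genotypes at 12 months and an interaction median of 0.0106. The share of all tested genes called by surrogate variables in DESeq2 was 8.14% with age in WT/WT, 13.7% with age in 304Q/304Q and 11.1% between genotypes at 12 months. DESeq2 alone called 11 genes with age in 304Q/304Q, where 8.74% of all tested genes were called. Fitting only the groups compared called 17 in WT/WT and 14 in 304Q/304Q (6.08% and 7.8% of all tested genes). Over protein-coding genes without the mitochondrially encoded ones, the mean share was 0.907% in 304Q/304Q 2m and 1.03% in 304Q/304Q 12m. Without the 6 libraries with choroid plexus markers, chosen after the data were seen, 1 gene was called with age in 304Q/304Q, and the genotype median at 12 months was -0.17. For WT/WT 12m this fit held only replicates 3 and 4. The cause of these shifts was not tested. Fitting only the groups compared and leaving out the choroid plexus libraries also lowered the number of libraries, and the part of that number was not tested either.

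Leaving out each library in turn gave 15 to 64 genes with age in WT/WT, 2 to 13 in 304Q/304Q, 0 to 3 between genotypes at 12 months and 0 to 1 for the interaction. The highest count with age in both genotypes came without WT/WT 12m replicate 1, the lowest without WT/WT 12m replicate 3 and 304Q/304Q 2m replicate 5.

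The replicate numbers did not pair the mice: 6 of 30 same-numbered pairs correlated above 0.1 (from -0.32 to 0.55), and 4 correlated best with their own number. With the replicate block, 34 genes were called with age in WT/WT and 7 in 304Q/304Q, where 10.7% and 6.81% of all tested genes were called. The co-variation was then 0.62.

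Of 498 values of named genes under the alternatives, 468 kept direction and side of the threshold, 20 lost the call, 3 gained it and 7 changed sign. Of 840 without a library, 806 kept both, 26 lost the call, 3 gained it and 5 changed sign. All changes of sign were in genes near 0 that were not called. With age in WT/WT, Rpl22 had -0.00364 and -0.000186 with surrogate variables in DESeq2 and edgeR, -0.0656 with the trend removed, and -0.0213 to 0.0435 over the fits without a library (below 0 without WT/WT 12m replicate 2 or 3). Rps15a had 0.0635 with the trend removed and 0.00432 without the choroid plexus libraries, and Rpl22l1 -0.17 to 0.00478 (above 0 without WT/WT 2m replicate 2). With age in 304Q/304Q, Rpl7l1 had 0.000303 with surrogate variables in DESeq2 and -0.0568 to 0.00373 over the fits without a library (above 0 without 304Q/304Q 12m replicate 3), and Rpl39 -0.17 to 0.0178 (above 0 without 304Q/304Q 2m replicate 2). The interaction of Rpl32 was -0.0387 without the choroid plexus libraries.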

Other observations

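Rps4l, which the annotation lists as a transcribed processed pseudogene of the small-subunit gene Rps4x and which is therefore no member of the group, had 173 ± 58.6 normalized counts (SD, n = 5) in WT/WT 2m, 172 ± 16.1 in 304Q/304Q 2m, 238 ± 37.5 in WT/WT 12m and 197 ± 21.6 in 304Q/304Q 12m. Its log2 fold change with age was 0.46 (adjusted p = 0.0686 in edgeR's quasi-likelihood test) in WT/WT and 0.19 (adjusted p = 0.607) in 304Q/304Q. Rpl36al had a mean of only 9.3 counts and was not tested. The 5 tested ribosomal protein pseudogenes correlated with the mean of the 79 genes at r = 0.14 (20 mice), against a median of 0.83 for the genes themselves with the mean of the others, and had a median log2 fold change with age of 0.37 in WT/WT and 0.27 in 304Q/304Q, with none called.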
